A study of Mus musculus with 20 samples.

Results

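Antibodies and T cell receptors are assembled from separate gene segments, and 130 of these segments were expressed in the livers of the 20 mice of this study. The gene table holds 38924 genes, of which 477 are typed as immunoglobulin or T cell receptor segments and not as pseudogenes. The 130 members are those with more than 0.5 FPKM, the fragments of a gene scaled to its length and to the size of the library, in at least 2 libraries. They were 12 constant regions, 68 V segments, 49 J segments and 1 D segment. By locus, 31 lay in the heavy-chain locus Igh, 41 in the kappa locus Igk, 3 in the lambda locus Igl, 25 in Tra, 22 in Trb, 5 in Trg and 3 in Trd. The members were chosen by level over all libraries, whatever the group, so that being expressed is a property of the choice and not a result. Just inside the threshold were Igkv4-58, with 0.507 FPKM in its second highest library, and Ighv1-85, with 0.512. Just outside were Igkv16-104 and Trav13-4-dv7, both with 0.499.

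The liver RNA came from male mice bought at 5 weeks of age, acclimated for 1 week and fed for 12 weeks, with 5 mice in each of 4 groups. NDWT and NDKO mice received control chow, and HFWT and HFKO mice received CDAHFD, a choline-deficient high-fat diet with defined L-amino acids. WT mice were C57BL/6J, and KO mice were a TSP-1 knockout line labelled with the same C57/BL6 background. Both lines were purchased, and the sources used here do not describe them as littermates. A section of a right lobe gave poly(A)-selected RNA. Thbs1, the gene that encodes TSP-1, did not follow the genotype labels. It ranged from 0.058 to 0.326 FPKM in NDWT and from 0.986 to 1.90 in NDKO, a log2 fold change of 2.28 (SE 0.24, limma, adjusted p = 1.02e-05), and on CDAHFD it ranged from 3.46 to 6.10 in HFWT and from 3.05 to 4.40 in HFKO. The genotype is therefore given below as the label of the library.

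A B cell or T cell joins a V segment, in some loci a D segment, and a J segment by DNA recombination, and RNA splicing then attaches a constant region. In B cells, heavy-chain constant regions name the antibody class: Ighm gives IgM, Igha gives IgA and the Ighg genes give subclasses of IgG, and the light chain is kappa or lambda. In T cells, Trac and Trbc form the alpha-beta receptor and the Trg and Trd loci form the gamma-delta receptor. Descendants of a cell inherit its rearrangement, but the fragments on a V segment do not by themselves identify a clone. The adult liver holds resident and passing lymphocytes, and the liver passes IgA into bile.

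The J and D segments show how short most of these features are. Transcript sequences were taken from GENCODE M21 on GRCm38, which held 129 of the 130 identifiers, each at an overlapping position. GENCODE M21 types the J members Traj1, Traj8, Traj36 and Trbj2-6 as pseudogenes, whereas the gene table does not. The J segments with the highest mean FPKM in Igh, Igk and Trb are printed 5′ to 3′ with the other heavy-chain J segments and with the Trb segments that differed most between diets. Capitals mark the codons for the tryptophan-glycine or phenylalanine-glycine turn that nearly all functional J segments share, searched on the coding strand as the letters TGG in Igh or TTN elsewhere, followed by GGN, any 3 bases and GGN.
Ighj1: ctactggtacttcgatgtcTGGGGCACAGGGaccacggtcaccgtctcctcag
Ighj2: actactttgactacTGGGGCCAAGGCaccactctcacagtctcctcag
Ighj3: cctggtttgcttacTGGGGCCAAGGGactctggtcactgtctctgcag
Ighj4: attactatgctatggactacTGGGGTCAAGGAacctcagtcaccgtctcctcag
Igkj3: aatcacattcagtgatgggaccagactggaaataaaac
Igkj5: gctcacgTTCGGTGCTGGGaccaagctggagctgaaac
Trbd1: gggacagggggc
Trbj1-3: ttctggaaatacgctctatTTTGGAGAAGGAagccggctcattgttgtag
Trbj1-4: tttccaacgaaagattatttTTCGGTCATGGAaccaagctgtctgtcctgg
Trbj1-5: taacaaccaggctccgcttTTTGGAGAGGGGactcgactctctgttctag
Trbj1-6: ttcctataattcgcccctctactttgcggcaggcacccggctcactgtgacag
Ighj4 lies on the minus strand at chr12:113428514-113428567, Igkj3 on the plus strand at chr6:70723223-70723260, Trbd1 at chr6:41533201-41533212 and Trbj1-3 at chr6:41534323-41534372. The pattern was present in 39 of the 49 J members and in 66 of the 88 J segments of the table. Igkj3 and Trbj1-6 held no match, although both collected fragments. A match or its absence describes these letters only.

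Because FPKM divides by length, a fragment on a short segment weighs much more than one on a constant region. The deposited values are whole multiples of the value of 1 fragment, so that the fragments themselves could be recovered. In a J segment of 27 to 66 bases, 1 fragment was worth 0.651 to 2.37 FPKM and always passed the threshold, whereas a V segment needed 3 to 5 fragments and a constant region 3 to 18. The 49 J segments gave 31.1% of all member FPKM but only 4.26% of the 15992 member fragments, and the 12 constant regions gave 77.2% of the fragments. In the Tra locus, 23 J segments carried 71.8% of the summed FPKM and 26.3% of the fragments. A total of 30 members rested on 10 fragments or fewer in all 20 libraries together, and 29 of these were J segments. For this reason locus levels are given below in fragments per 1000000 fragments of the library (FPM), with the summed FPKM beside them.

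**Figure D1:**
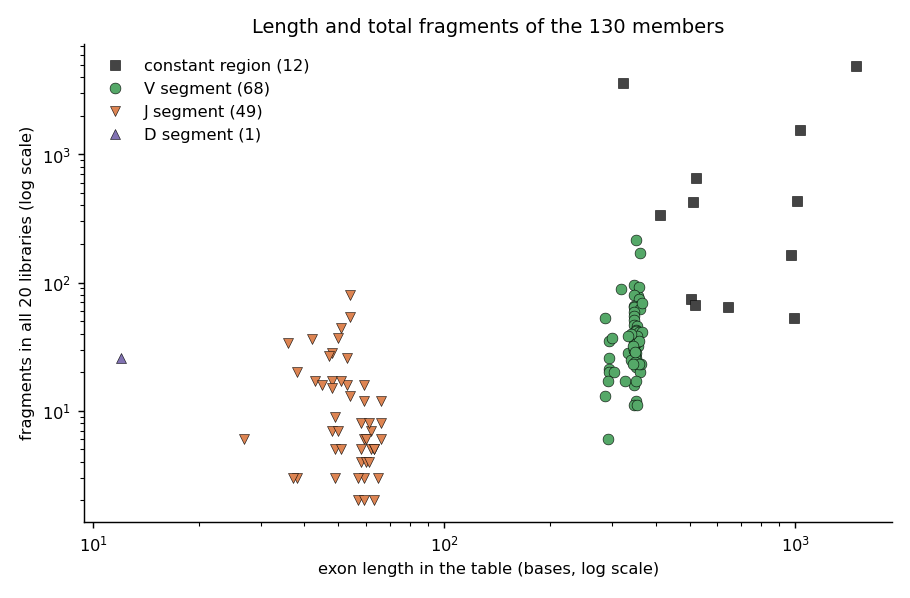
Each point is a member, with its exon length in bases on the horizontal axis and its fragments summed over all 20 libraries on the vertical axis, both on log scales. J segments (orange) lie at 27 to 66 bases with at most 80 fragments, V segments (green) at 287 to 366 bases, and the constant regions (grey squares) reach 4925 fragments.

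Members took a small part of each library. They received 10.7 to 39.2 FPM in the NDWT libraries and 16.9 to 44.0 in NDKO, against 47.2 to 110.2 in HFWT and 46.8 to 69.4 in HFKO, so that every CDAHFD library lay above every control library. As the members were chosen by level in these same libraries, this order is a description and was not tested. The libraries held 15641545 to 23276322 fragments. Hepatocyte markers were high in every library, with a summed FPKM of the 8 listed genes from 25656.6 to 44999.5, and B cell and T cell markers were present at low levels. RNA of lymphocytes was therefore a minor part of a liver sample, and in such bulk RNA fewer cells of a type and less RNA per cell cannot be told apart.

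Igh, Igk, Tra, Trb and Trg had more fragments on CDAHFD within both genotype labels. The heavy-chain locus rose from 11.5 ± 5.6 FPM (SD, n = 5) in NDWT to 30.03 ± 12 in HFWT, a ratio of 2.62, and from 12.4 ± 6.6 in NDKO to 28.95 ± 5.7 in HFKO, a ratio of 2.33. In single libraries Igh stood at 11.4, 6.77, 19.6, 5.71 and 13.9 in NDWT against 28.0, 22.5, 25.3, 50.7 and 23.6 in HFWT. It stood at 23.9, 7.61, 11.9, 8.95 and 9.89 in NDKO against 38.4, 26.9, 24.1, 25.2 and 30.2 in HFKO. The CDAHFD and control libraries did not overlap in FPM within either genotype label, but those labelled KO overlapped in summed FPKM and in fragments. HFWT 4 was the highest library. The kappa locus went from 7.57 ± 4.8 to 21.3 ± 13 in WT and from 8.99 ± 4.4 to 17.6 ± 3.9 in the libraries labelled KO, with overlap in both. The summed FPKM gave ratios of 3.09 and 2.13 for Igh and of 2.76 and 2.03 for Igk. Members were chosen by level in these same libraries, so that the choice bears on their sums. Over all segments of the gene types, at any level, the FPM ratios were 2.64 and 2.37 for Igh and 2.79 and 2.02 for Igk. No test was run on a sum over members or over all segments.

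T cell receptor loci were lower in level and moved further. Trb had 1.76, 3.18, 1.57, 0.816 and 2.56 FPM in NDWT against 8.14, 7.69, 8.78, 9.47 and 5.90 in HFWT, a ratio of means of 4.05. In the libraries labelled KO it had 1.26, 1.45, 1.66, 1.94 and 1.63 against 4.62, 5.37, 5.56, 2.68 and 7.82, a ratio of 3.28. No control library reached a CDAHFD library of the same label. Tra went from 0.408 ± 0.20 to 2.58 ± 0.94 in WT, a ratio of 6.33, and from 0.429 ± 0.20 to 1.64 ± 0.77 in the libraries labelled KO, a ratio of 3.83, again without overlap in FPM, although the latter groups overlapped in summed FPKM. The gamma locus Trg went from 0.272 ± 0.21 to 0.892 ± 0.15 and from 0.352 ± 0.30 to 1.07 ± 0.41, with overlap in the second comparison only. The summed FPKM ratios were 7.27 and 4.73 for Trb and 5.62 and 4.11 for Tra. These sums too are over members chosen by level in the same libraries. Over all segments, at any level, the FPM ratios were 4.34 and 3.28 for Trb, 6.68 and 4.46 for Tra and 2.92 and 2.67 for Trg. The delta locus Trd had at most 8 fragments in a library, and no ratio is given for it.

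Few fragments fell on the lambda V segments. The 3 lambda V members had 0.972 ± 0.89 FPM in NDWT and 0.831 ± 0.37 in HFWT, and 0.541 ± 0.28 in NDKO and 0.941 ± 0.43 in HFKO, and all groups overlapped. The ratio of CDAHFD to control was 0.855 in WT and 1.74 in the libraries labelled KO. The WT control mean rested on NDWT 3, at 2.47, with the other NDWT libraries from 0.175 to 1.00. Without that library the log2 ratio of summed FPKM in WT was 0.48 in place of -0.23.

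**Figure D2:**
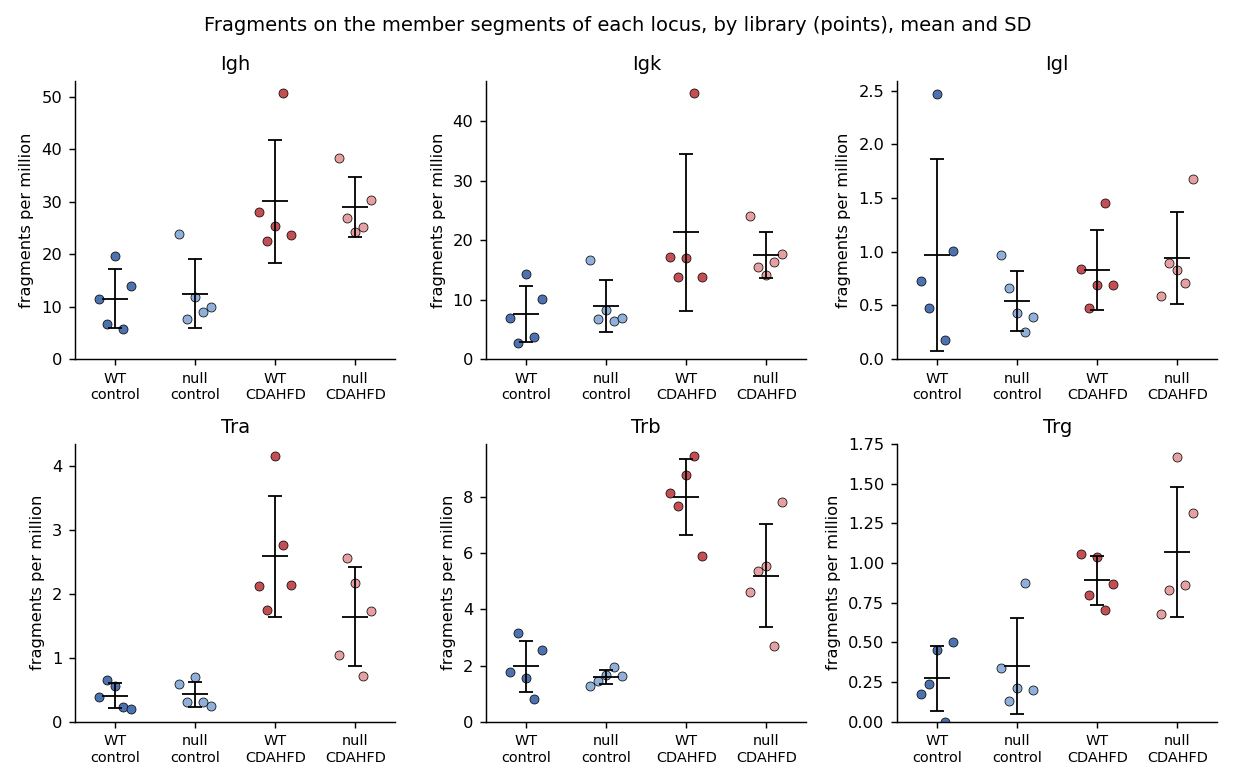
Each panel plots FPM on the members of 1 locus, with a point for each library, a horizontal bar for the mean and whiskers for 1 SD (n = 5). In Igh, Tra and Trb every CDAHFD library (red) lies above every control library (blue) of the same genotype label, whereas the 4 groups of Igl overlap.

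Of the 130 members, 63 had more than 0.5 FPKM in at least 5 libraries and entered the test, which was fitted by limma over 14524 genes. A gene was called at a Benjamini-Hochberg adjusted p under 0.05 and an absolute log2 fold change over 0.58. In WT, 34 of the 63 were called higher on CDAHFD (54.0%), beside 44.1% of all tested genes, and 0 were called lower, beside 4.62%. In the libraries labelled KO, 22 were called higher (34.9%), beside 41.9%, and 0 lower, beside 4.00%. Both shares were near the background, and 50 of the 63 members had passed the filter only with CDAHFD libraries, against 2407 of all 14524 genes, and nothing about the members as a group is read from these counts. At an unadjusted p under 0.05, 37 and 25 members differed between diets, all of them higher on CDAHFD. Groups did not overlap for 10 of 63 members in WT, beside 56.2% of all genes, and for 6 in the libraries labelled KO, beside 57.8%, both shares of members being lower than that background.

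The median log2 fold change between diets was 1.66 over the 63 members in WT and 1.17 in the libraries labelled KO, beside 0.53 and 0.50 over all tested genes. As 50 of the 63 had entered the test only with CDAHFD libraries, the filter bears on these medians, and nothing about the members is read from them. Scaling by the median of ratios, which removes that general shift, left 25 and 17 members called, while the calls over all genes went from 6412 higher and 671 lower to 3351 higher and 2145 lower in WT and from 6088 and 581 to 3283 and 1921 in the libraries labelled KO. The same filter bears on the direction of the member calls.

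The 9 constant regions that could be tested were all called higher on CDAHFD within both genotype labels. Over all tested genes, 44.1% were called higher in WT and 41.9% in the libraries labelled KO. Under median of ratios scaling, Ighm, Igkc and Tcrg-C2 lost their calls in both labels and Trbc1 in the libraries labelled KO. Ighg1, Ighg2b and Tcrg-C2 entered the test only with CDAHFD libraries, whereas Ighm, Igha, Igkc, Trac, Trbc1 and Trbc2 would have entered on control libraries alone. The largest difference was in Igha, the constant region of IgA. Igha had 0.415, 0.290, 0.978, 0.338 and 0.776 FPKM in NDWT against 4.04, 3.69, 5.63, 14.6 and 6.60 in HFWT. It had 1.64, 1.23, 1.76, 0.847 and 0.431 in NDKO against 11.5, 5.81, 6.08, 4.26 and 6.39 in HFKO. The lowest CDAHFD library was above the highest control library in both, with log2 fold changes of 3.34 (SE 0.39, adjusted p = 3.22e-07) and 2.49 (SE 0.39, adjusted p = 1.42e-05). These calls held under every scaling tried.

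Ighm, the constant region of IgM, was the most abundant heavy chain and differed less. It had 6.42, 2.90, 9.75, 3.22 and 6.78 FPKM in NDWT and 11.4, 9.14, 9.29, 19.1 and 7.83 in HFWT. In NDKO it had 12.6, 2.78, 5.40, 4.42 and 5.43, against 13.05, 10.5, 9.43, 10.96 and 11.9 in HFKO. The groups overlapped through NDWT 3 and NDKO 1, and the log2 fold changes were 1.02 (SE 0.35, adjusted p = 0.0122) and 1.03 (SE 0.35, adjusted p = 0.0121). Relative to the median of all genes these come to 0.49 and 0.53, and neither call held under median of ratios scaling (adjusted p = 0.229 and 0.207).

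Among the IgG subclasses, Ighg2b went from 0.470 ± 0.45 FPKM in NDWT to 1.85 ± 0.60 in HFWT and from 0.464 ± 0.40 in NDKO to 1.70 ± 0.59 in HFKO. Its log2 fold changes were 2.07 (adjusted p = 0.00356) and 2.06 (adjusted p = 0.00378). Ighg1 was lower in level, at 0.135 ± 0.15 and 0.131 ± 0.11 FPKM on control chow and 0.780 ± 0.36 and 0.715 ± 0.50 on CDAHFD, with log2 fold changes of 2.06 (adjusted p = 0.00140) and 1.71 (adjusted p = 0.00605). Both subclasses lost their calls under quantile normalization. Ighg3 passed 0.5 FPKM only in NDWT 3, at 0.849, and HFKO 4, at 0.714, and was not tested.

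The make-up of the heavy chains shifted towards IgA. Igha made up 5.64, 8.31, 7.57, 8.80 and 9.40% of the FPKM of the 5 heavy-chain constant regions in NDWT and 21.03, 25.0, 32.1, 40.04 and 39.0% in HFWT. Its share was 10.7, 24.7, 21.8, 15.7 and 7.12% in NDKO and 41.5, 30.96, 34.3, 24.3 and 30.2% in HFKO. The WT groups did not overlap, whereas NDKO 2 lay above HFKO 4. The share of Ighm went the other way, from 82.3 ± 4.3% to 54.6 ± 6.2% in WT and from 75.2 ± 14% to 55.1 ± 5.6% in the libraries labelled KO, while Ighg1, Ighg2b and Ighg3 together held 9.72 ± 4.1, 8.77 ± 6.9, 14.02 ± 4.2 and 12.7 ± 0.75% in NDWT, NDKO, HFWT and HFKO. Counted in fragments, the Igha share was 5.86, 12.3, 25.6 and 26.2% in the same order of groups. Ighg2c and Ighe, which the table types as protein coding, fall outside the rule, and adding them to the total gave Igha shares of 7.82, 15.5, 29.5 and 31.2%.

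**Figure D3:**
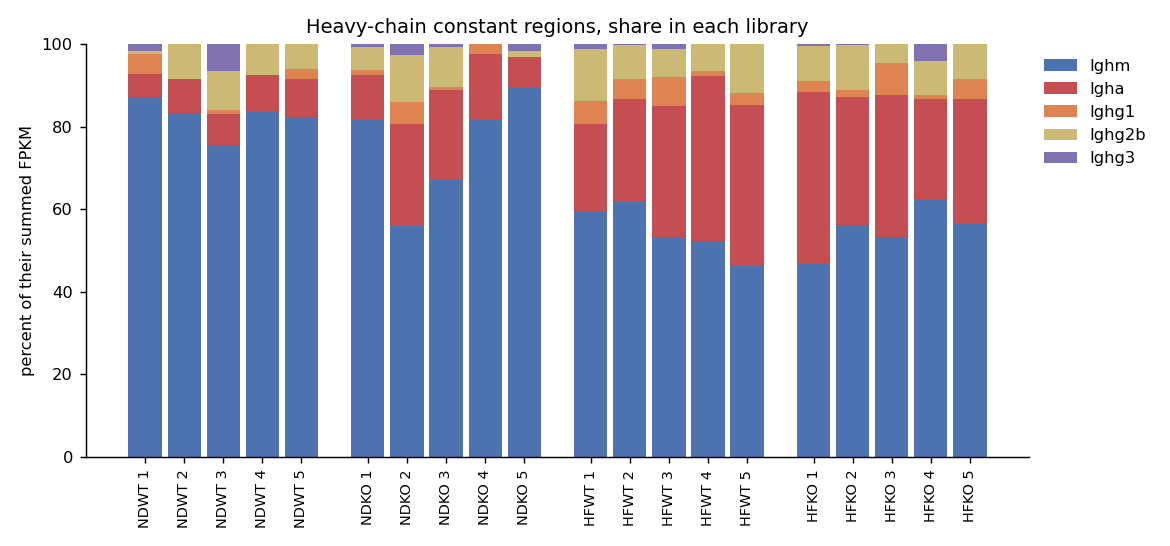
Each bar is a library, divided into the percent of summed FPKM held by Ighm, Igha, Ighg1, Ighg2b and Ighg3. Igha (red) takes 5.64 to 24.7% in the control libraries and 21.03 to 41.5% in the CDAHFD libraries, and Ighm (blue) is the largest share in all 20.

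Among light chains, the kappa constant region Igkc had the highest FPKM of all members. It had 13.6, 5.94, 29.2, 8.84 and 22.8 FPKM in NDWT and 32.6, 28.9, 35.4, 89.6 and 22.9 in HFWT. In NDKO it had 36.8, 13.6, 16.1, 16.3 and 16.4, against 53.3, 27.9, 32.5, 37.6 and 36.7 in HFKO. NDWT 3 and NDKO 1 lay within the CDAHFD range, and the other 8 control libraries lay below it. The log2 fold changes were 1.43 (SE 0.40, adjusted p = 0.00326) and 0.99 (SE 0.40, adjusted p = 0.0322). Under median of ratios scaling both calls were lost (adjusted p = 0.0592 and 0.324). The second was also lost without NDKO 2, 3, 4 or 5 or HFKO 1, 4 or 5, left out singly, with adjusted p from 0.0507 to 0.0801.

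Lambda V segments were 18.7, 29.9, 32.2, 10.7 and 24.2% of light-chain V FPKM in NDWT and 10.2, 8.16, 10.3, 7.73 and 8.19% in HFWT, so that the lowest NDWT library exceeded the highest HFWT library. NDWT 4, at 10.7%, had 3 lambda and 24 kappa V fragments, and HFWT 3 stood at 10.3%, so that this separation rests on few fragments. The shares were 15.4 ± 3.5% in NDKO and 12.5 ± 4.9% in HFKO and overlapped. Iglv1, the most abundant lambda V segment, was not called in WT (log2 fold change 0.28, adjusted p = 0.691) or in the libraries labelled KO (0.74, adjusted p = 0.284). Iglv1 shared 133 stretches of 31 bases with Iglv2, and reads from such stretches cannot be told apart. The lambda constant region Iglc2, typed as protein coding and so no member, had 0.364 ± 0.20 FPKM in NDWT and 1.28 ± 0.64 in HFWT, a log2 fold change of 1.58 (adjusted p = 0.00186).

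**Figure D4:**
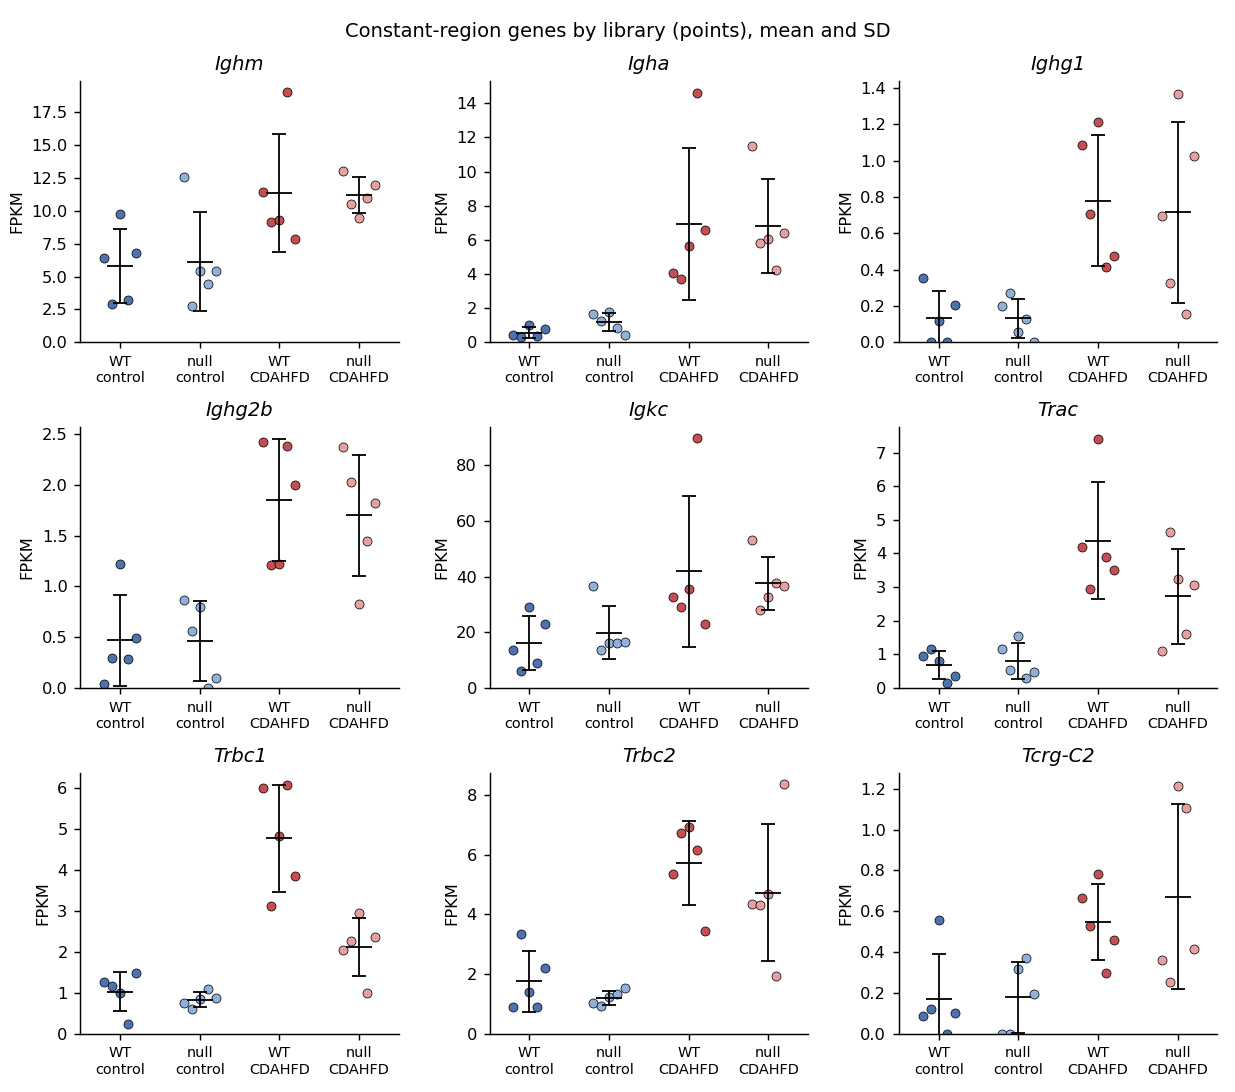
Each panel plots the FPKM of a tested constant region, with a point for each library, a bar for the mean and whiskers for 1 SD (n = 5, cut at 0). Igha and Trbc2 separate the diets without overlap in both genotype labels, and HFWT 4 is the highest HFWT library for Ighm, Igha, Igkc and Trbc1.

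The T cell receptor constant regions were called higher on CDAHFD as well. Trac, the alpha-chain constant region, had 0.936, 1.16, 0.816, 0.141 and 0.364 FPKM in NDWT and 4.18, 2.96, 7.41, 3.88 and 3.502 in HFWT. In the libraries labelled KO it had 1.17, 0.533, 1.55, 0.303 and 0.479 on control chow and 1.10, 4.64, 3.23, 1.59 and 3.05 on CDAHFD. The WT groups were apart, with a log2 fold change of 2.67 (SE 0.47, adjusted p = 4.03e-05), and the groups labelled KO overlapped, with 1.67 (SE 0.47, adjusted p = 0.00349), a call that was lost under quantile normalization (adjusted p = 0.120). The interaction of diet and genotype label was not called for Trac (-1.004, SE 0.66, adjusted p = 0.512).

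The beta chain has a pair of constant regions, each downstream of its own D and J cluster, and the first parts of their transcripts differ at few bases. The first 259 bases of the transcripts were identical, and 19 of the first 500 differed. Bases 361 to 450 hold 10 of these, shown here in capitals, and within the first 500 bases fragments over such differences can tell the genes apart. Trbc1 lies at chr6:41538218-41539347 and Trbc2 at chr6:41546730-41548352, both on the plus strand of GRCm38.
Trbc1: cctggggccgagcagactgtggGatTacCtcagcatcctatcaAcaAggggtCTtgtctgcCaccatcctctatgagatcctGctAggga
Trbc2: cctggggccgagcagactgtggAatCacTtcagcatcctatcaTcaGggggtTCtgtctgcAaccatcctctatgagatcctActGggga
Trbc2 went from 1.75 ± 1.0 FPKM in NDWT to 5.72 ± 1.4 in HFWT (log2 fold change 1.78, SE 0.34, adjusted p = 0.000108) and from 1.20 ± 0.24 in NDKO to 4.73 ± 2.3 in HFKO (1.77, SE 0.34, adjusted p = 0.000126), without overlap in either. Trbc1 went from 1.02 ± 0.48 to 4.77 ± 1.3 in WT (2.25, SE 0.35, adjusted p = 9.24e-06) and from 0.833 ± 0.18 to 2.11 ± 0.71 in the libraries labelled KO (1.19, SE 0.35, adjusted p = 0.00457). The latter call was lost under median of ratios scaling (adjusted p = 0.0835) and quantile normalization (adjusted p = 0.396).

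Trbc1 was also the member that came closest to a genotype difference on CDAHFD. It had 5.99, 3.11, 4.82, 6.07 and 3.84 FPKM in HFWT and 2.04, 2.25, 2.93, 0.988 and 2.36 in HFKO, so that the lowest HFWT library was above the highest HFKO library. The log2 fold change of -1.17 (SE 0.35, unadjusted p = 0.00310) did not pass in limma after adjustment (adjusted p = 0.1001), and the interaction was -1.06 (SE 0.49, adjusted p = 0.310). With a pseudocount of 1 in place of 0.1 the difference was called, at -0.89 (adjusted p = 0.0199), and it was also called without NDWT 4 (adjusted p = 0.0232). Trbc1 was the only member of 63 whose HFWT and HFKO libraries did not overlap, beside 4.98% of all genes. For Trbc2 the same comparison gave -0.37 (SE 0.34, adjusted p = 0.603). The Trbc1 share of the FPKM of both genes was 52.8, 31.6, 41.1, 49.6 and 52.7% in HFWT and 31.9, 34.4, 38.4, 33.7 and 22.0% in HFKO, which overlap.

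Upstream in Trb, the D and J segments had few fragments, most of them on CDAHFD. Trbd1, the 12-base D segment printed above, had 0 fragments in every NDWT library and 3, 4, 2, 7 and 1 in the HFWT libraries, which is at least 5.70-fold higher when 3 fragments over the NDWT group are taken as the floor. In the libraries labelled KO it had 1 fragment in NDKO 2 and 1, 2, 1, 0 and 4 in HFKO. Trbj1-3 had 1 fragment in all of NDWT and 4, 5, 6, 12 and 9 in HFWT, with a log2 fold change of 5.33 (SE 0.94, adjusted p = 4.28e-05), and 2, 0, 5, 4 and 2 in HFKO against 0, 1, 1, 1 and 1 in NDKO, which was not called (1.17, adjusted p = 0.272). Trbj1-4 was called in both labels (3.49, adjusted p = 0.00255, and 4.11, adjusted p = 0.000669), Trbj1-5 in WT (4.45, adjusted p = 0.00109) and Trbj1-6 in the libraries labelled KO (4.44, adjusted p = 5.72e-05). The interaction for Trbj1-3 was -4.17 (SE 1.33, adjusted p = 0.136). On segments this short 1 fragment passes 0.5 FPKM, and Trbd1 entered the test only with CDAHFD libraries. Of the 63 tested members 50 entered in that way, and the filter bears on the direction of differences between diets for such segments. No J member shared a stretch of 31 bases with another segment.

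Of 23 Tra J members, 6 were tested, and 5 were called higher in WT and 1, Traj7, also in the libraries labelled KO (2.51, adjusted p = 0.00535, and 3.70, adjusted p = 0.000200). Beside these counts stand 44.1% and 41.9% of all tested genes called higher, and nothing is read from so few segments. Traj7 had 16 fragments in all, 1 of them in the 10 control libraries. It therefore entered the test only with CDAHFD libraries, and the filter bears on the direction of its calls. Traj18, the J segment of the invariant receptor of natural killer T cells, had 1, 0, 1, 2 and 0 fragments in HFWT, 2 in all of HFKO and 0 in all control libraries. Traj18 thus also entered the test only with CDAHFD libraries, and the filter bears on the direction of its call in WT. The only Tra V member, Trav14d-3-dv8, had 0 fragments in the 10 control libraries, 9 in HFWT and 8 in HFKO, and was not tested. It became a member through CDAHFD libraries alone, so that the choice set the direction of this difference.

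The gamma-delta receptor was represented by few fragments. Tcrg-C2 went from 0.172 ± 0.22 to 0.547 ± 0.19 FPKM in WT (log2 fold change 1.495, SE 0.53, adjusted p = 0.0160) and from 0.178 ± 0.17 to 0.671 ± 0.45 in the libraries labelled KO (1.57, SE 0.53, adjusted p = 0.0125). Both calls were lost with a pseudocount of 1 and under either other scaling. Tcrg-C1 shares 320 stretches of 31 bases with Tcrg-C2 and, with Tcrg-C4, was not tested. Tcrg-C4 had 0.053 ± 0.082 and 0.093 ± 0.17 FPKM on control chow and 0.415 ± 0.078 and 0.523 ± 0.30 on CDAHFD. No control library passed 0.5 FPKM for Tcrg-C4, so that the choice of members set the direction of this difference. AC146604.1, the Trg J member, overlaps Tcrg-C4 in position and had 8 fragments. In the delta locus Trdj2 had 3, 2, 0, 5 and 2 fragments in HFWT and 0 in the other 15 libraries. This is at least 4.01-fold more than in HFKO, and Trdj2 was too low to enter the test as set out above. As it became a member through HFWT libraries alone, the choice set the direction of this difference.

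V segments were spread thinly over the libraries, and a few stood out in single mice. Any fragment was seen for 90 of 112 Igh V segments and 83 of 98 Igk V segments, and no V segment of either locus was seen in all 20 libraries. Igkv1-135 was seen in 19 and Ighv6-3 in 18. Median numbers of kappa V segments seen per library were 27 and 23 in NDWT and NDKO, and 40 and 44 in HFWT and HFKO, and kappa V fragments ranged from 18 to 115 per control library and from 75 to 344 per CDAHFD library. Segments seen were not compared at equal fragment numbers. The V segments are also alike in sequence: 60 of 67 V members with a sequence shared stretches of 31 bases with another segment, against 7 of 12 constant regions.

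Igkv2-137 was the most abundant kappa V member, and 83 of its 170 fragments came from HFWT 4, where it made 24.1% of kappa V fragments. HFWT 4 also held 56 of the 95 fragments of Igkv6-23, 22 of the 79 of Ighv6-3 and 21 of the 66 of Igkv5-43. In HFKO 1, Igkv15-103 had 35 of its 80 fragments, or 18.7% of kappa V fragments. In HFWT 1, Igkv6-25 had 28 of its 55, and in NDKO 1 Igkv4-59 had 17 of its 42. The high library was not the same for all of these segments, and Igkv2-137 also had 17 fragments in NDKO 1. The largest heavy-chain V signals lay outside the rule because they passed 0.5 FPKM in 1 library only: Ighv1-77 had 40 fragments in HFWT 4 and 2 elsewhere, and Ighv10-1 had 37 in HFKO 1 and 11 elsewhere. Such segments, above the threshold in 1 library, numbered 66.

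**Figure D5:**
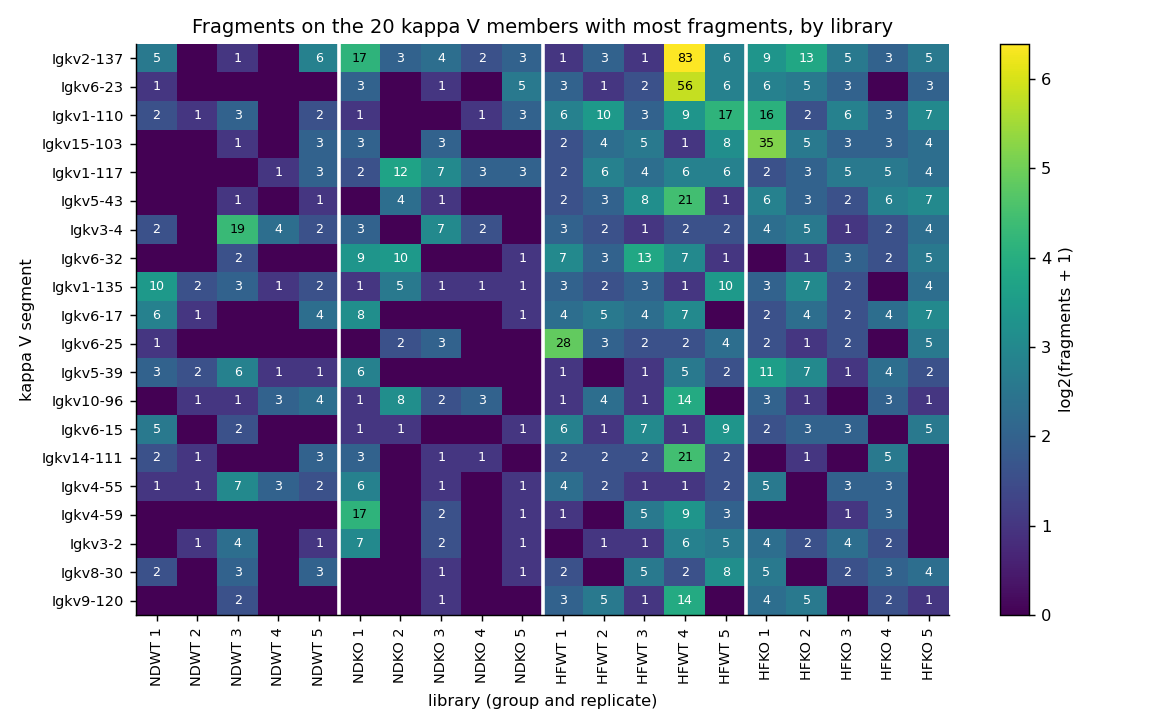
The heat map gives fragments on the 20 kappa V members with the most fragments (rows) in each library (columns, with white lines between groups), coloured by log2(fragments + 1) and with the counts written in. Igkv2-137 and Igkv6-23 are brightest in HFWT 4 with 83 and 56 fragments, Igkv15-103 in HFKO 1 with 35 and Igkv6-25 in HFWT 1 with 28.

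Among V segments, 9 of 26 tested were called higher in WT (34.6%, beside 44.1% of all tested genes) and 5 in the libraries labelled KO (19.2%, beside 41.9%), so that neither share exceeded the background. Igkv1-110 was called in both, from 0.231 ± 0.17 to 1.36 ± 0.87 FPKM (log2 fold change 2.14, adjusted p = 0.00189) and from 0.144 ± 0.17 to 0.950 ± 0.67 (2.16, adjusted p = 0.00180). Igkv5-43 and Igkv15-103 were called in both as well, with log2 fold changes of 2.38 and 1.85 in WT and of 2.16 and 2.36 in the libraries labelled KO. Ighv9-3 was called only in the latter (1.85, adjusted p = 0.00387), where it had 0.138, 0, 0.152, 0.178 and 0.423 FPKM in NDKO and 0.774, 0.729, 1.27, 0.432 and 0.897 in HFKO, without overlap. In that comparison 57.8% of all genes did not overlap. Igkv1-110 and Ighv9-3 are among the 50 of 63 tested members that entered the test only with CDAHFD libraries. The filter bears on the direction of such calls. The beta V segments led by Trbv13-2, at 0.487 ± 0.40 in NDWT and 1.10 ± 0.65 in HFWT, were not called (1.23, adjusted p = 0.0593).

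Between genotype labels on control chow, 5 of 63 members had an unadjusted p under 0.05. No share of all genes is given at that cut, and nothing is read from this count. At the adjusted p and fold thresholds, 1 of 63 members was called, beside 4.77% of all genes. This was Igkv1-117, with 0, 0, 0, 1 and 3 fragments in NDWT and 2, 12, 7, 3 and 3 in NDKO. The log2 fold change was 2.12 (SE 0.47, adjusted p = 0.00618), and NDKO 1 at 0.270 FPKM lay below NDWT 5 at 0.419. On CDAHFD it had 2, 6, 4, 6 and 6 fragments in HFWT and 2, 3, 5, 5 and 4 in HFKO, and the interaction was -2.38 (SE 0.67, adjusted p = 0.0884). Igkv1-117 shares 234 stretches of 31 bases with Igkv1-110. Igha came next among the constant regions, at 0.559 ± 0.30 in NDWT and 1.18 ± 0.55 in NDKO, and was not called (0.94, SE 0.39, adjusted p = 0.125), but it was called without NDKO 5 (1.23, adjusted p = 0.0377). Libraries of the labels overlapped for all 63 members on control chow, beside 9.03% of genes without overlap.

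On CDAHFD, limma called 0 of 63 members between genotype labels, beside 0.496% of all genes, and 6 had an unadjusted p under 0.05. These were Trbc1 and Trbj1-3, lower in the libraries labelled KO, and Ighv9-3, Trbj1-6, Trbj2-1 and AC146604.1, higher in them. Trbj2-1 had 5 fragments in HFKO, and AC146604.1 had 8 in all libraries together. The interaction of diet and genotype label was called for 0 members, beside 0.647% of all genes, with 8 at an unadjusted p under 0.05. No share of all genes is given for the counts at an unadjusted p, and nothing is read from them. The heavy-chain locus stood at 30.03 and 28.95 FPM in HFWT and HFKO, whereas Trb stood at 7.998 ± 1.4 and 5.21 ± 1.9 and Tra at 2.58 ± 0.94 and 1.64 ± 0.77, with overlap in each.

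Genes that work beside the receptors were counted in 9 lists. Over all tested genes 44.1% were called higher in WT and 41.9% in the libraries labelled KO, and each count is to be read beside these shares. On the diet comparison in WT, 16 of 17 tested B cell surface and signalling genes were called higher and 0 lower, with a median log2 fold change of 1.45 beside 0.53 for all genes, and in the libraries labelled KO also 16 of 17 (1.48 beside 0.50). These included Cd79a, which signals for the B cell receptor, from 0.860 ± 0.35 to 2.43 ± 0.52 FPKM in WT. Of 16 tested plasma cell genes, 8 were higher and 1 lower in WT and 10 and 1 in the libraries labelled KO. Igj, the joining chain of IgA and IgM, differed by 0.98 in both (adjusted p = 0.0315 and 0.0318), Mzb1 was called in the libraries labelled KO only (1.25, adjusted p = 0.0339), Tnfrsf17 was at or below 0.071 FPKM in every library, and Sdc1, which hepatocytes also express, was lower (-0.82, adjusted p = 5.79e-08, in the libraries labelled KO). The list's summed FPKM was 246 to 369 in NDWT, 214 to 260 in NDKO, 224 to 291 in HFWT and 228 to 244 in HFKO. As the list holds genes such as Sdc1 that hepatocytes also express, this sum is not read as a level of plasma cells.

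Of 15 tested alpha-beta T cell genes, 13 were called higher and 0 lower in WT, with a median of 2.01, and 13 higher and 1 lower in the libraries labelled KO, with a median of 1.59. Cd3g, a signalling partner of the receptor, went from 0.622 ± 0.24 to 2.61 ± 0.88 FPKM in WT and from 0.507 ± 0.25 to 1.42 ± 0.55 in the libraries labelled KO. Cd8a, the co-receptor of cytotoxic T cells, was called in both (2.55, adjusted p = 4.24e-05, and 2.12, adjusted p = 0.000309), and Cd4 in neither (0.65, adjusted p = 0.0957, and 0.26, adjusted p = 0.520). Between the labels on CDAHFD, 0 of these 15 were called, with a median of -0.61 beside -0.10 for all genes.

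In the remaining lists, 4 of 7 gamma-delta and innate-like T cell genes, 4 of 6 NK cell genes and 13 of 17 survival and homing factors were called higher in WT. In the libraries labelled KO these were 5, 4 and 14, and 1 homing factor was lower in WT. Beside them stand 44.1% and 41.9% of all tested genes called higher, and nothing is read from the lists of 7 and 6 genes. Of 6 tested recombination and class switch enzymes, 2 were called higher in each, both of them repair genes that all cells use (Lig4 and Prkdc). Rag1 and Rag2, the recombinase of developing lymphocytes, stayed at or below 0.033 FPKM. Of 11 immunoglobulin receptors and transport genes, 5 were higher and 1 lower in WT and 8 and 0 in the libraries labelled KO, led by the Fc receptor genes Fcgr3 (2.22 and 1.97) and Fcer1g (2.45 and 2.30). Pigr, which carries IgA into bile, had 429 ± 19 FPKM in NDWT and 338 ± 8.9 in HFWT, a difference of -0.34 that is under the fold threshold. Of 8 hepatocyte markers, 0 were higher, and 2 and 3 were lower. The part of a changed share of hepatocyte RNA in these differences was not tested.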

How the data were processed

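Liver poly(A)-selected RNA of 20 male mice was sequenced in paired reads, and the authors deposited 1 table of FPKM per gene. The submitters' processing notes name STAR 2.5.2 and featureCounts of Subread 1.5.1 and a human build, although the identifiers are those of mouse genes. How multi-mapping fragments, or fragments that span a V, a J and a constant region, were assigned is not given in the sources used here.

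Groups came from the sample labels. Whole fragments were recovered from the FPKM steps: of the values checked, at least 93.3% of the positive values in each library, at least 99.988% came out whole within 0.1. A floor of 3 fragments was 0.129 to 0.192 FPKM for a gene of 1 kb. Intervals and floors cover counting error only. Tests used limma 3.58.1 in R 4.3.3 with a mean-variance trend on log2(FPKM + 0.1), which understates the change of low genes, over genes above 0.5 FPKM in at least 5 libraries and with all 20 libraries in 1 fit. Adjusted p-values are Benjamini-Hochberg values over all 14524 genes, and every p in the text comes from this fit unless an alternative is named beside it, whose p comes from the limma fit of that alternative. Tables were made in Python 3.11.15, and the fit was tested on simulated data.

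The members and the 9 gene lists were chosen with earlier results of these data known. Named were the constant regions, the most abundant members of each locus and class, members with the highest share in a library, called members and list genes with the lowest adjusted p, the members nearest the threshold and Thbs1. Igkv1-135, Igkv4-59, Igkv6-25, Traj18, Trbj1-5, Trbj2-1, Ighv1-77, Ighv10-1 and genes of the lists with a well-known role were named after their values were seen. Members that GENCODE M21 types as pseudogenes were named for that typing. Sequences came from GENCODE M21, and shared stretches are exact matches of 31 bases. Alternatives were other pseudocounts, filters and scalings, the replicate number as a block, and leaving out single mice. Replicate numbers did not pair the samples: 30 same-numbered pairs had correlations of deviations from -0.133 to 0.0812. In 40 pairs within groups no library was a copy of another. The labels do not say more than that each library is a mouse. Some genes of the lists are not reported here by name.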

Additional observations from a re-analysis of the deposited data

Results flagged for a closer look

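In groups of 5 mice, the highest or lowest library was set apart by Dixon's criterion in 28 of the 148 groups tested, over 37 quantities. The criterion flags about 1 in 20 groups of normally distributed values. Many of these quantities rest on few fragments, and they are not independent, since a sum contains its segments. The share flagged is therefore not set against chance.

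HFWT 4 was the high library for B cell segments. It had 147.1 summed FPKM over the kappa locus, 89.6 FPKM of Igkc, 14.6 of Igha, 11.5 of Igkv2-137, 8.09 of Igkv6-23 and 3.57 of Iglv1, and also 0.583 of Trbv29. NDKO 1 stood apart with 28.0 summed FPKM over Igh, 36.75 FPKM of Igkc, 12.6 of Ighm, 2.275 of Igkv2-137 and 4.75 summed FPKM over Trd. Other high values were 4.57 FPKM of Igkv15-103 in HFKO 1, 7.405 of Trac in HFWT 3, 0.632 of Iglv2 in NDKO 2 and 0.124 of Igkv6-23 in NDWT 1, which is 1 fragment. HFKO 5 had 4.70 summed FPKM over Igl and 2.01 FPKM of Iglv3.

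Ighg3 was set apart in NDWT 3, at 0.849 FPKM, and in HFKO 4, at 0.714. In the gamma and delta loci, flagged values rest on few fragments: 3.53 summed FPKM over Trg and 0.389 FPKM of Tcrg-C4 in NDKO 4, 1.04 FPKM of Tcrg-C4 in HFKO 3, 0.615 of Tcrg-C1 in HFWT 2, 0.558 of Tcrg-C2 in NDWT 3, 0.587 of Trdv4 in HFKO 4, and summed Trd values of 2.11 in NDWT 5 and 6.27 in HFKO 2. No interaction of diet and genotype label was called for any tested member.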

How the results depend on the processing

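Of the 18 constant-region differences called between diets, 312 of 342 values under the alternatives kept the call and 30 did not, and 0 turned direction. Of the 27 constant-region differences not called, 592 of 594 values stayed so. The count of members called between diets was 21 in WT and 10 in the libraries labelled KO under quantile normalization, and 27 to 35 and 18 to 24 when single mice were left out. Testing every member with the looser filter gave 50 and 29, of which 1, Ighv1-56 in the libraries labelled KO, was lower. Between labels on control chow the count was 2 with a pseudocount of 0.01, and 1 to 2 without single mice. On CDAHFD it was 1 with a pseudocount of 1 (Trbc1), and 1 with either looser filter (Trdj2, a member through its HFWT libraries alone). Without single mice it was 0 to 1, as it was for the interaction. With the replicate number as a block, the counts were 37, 23, 1, 0 and 0, in the order of diet in WT, diet in KO, label on control chow, label on CDAHFD and interaction. Samples with the same number share only that number.

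The log2 ratios of summed FPKM between diets became 0.57 for Igh and 0.50 for Igk in the libraries labelled KO under median of ratios scaling. For Trb in WT they were 1.92 with constant regions only and 2.02 in fragments, against 2.86 in FPKM. For Trg in the libraries labelled KO the ratio was 2.44 with group medians against 1.35, and 1.12 to 2.56 without single mice, the latter without NDKO 4. The causes were not tested. Segments with few fragments limit what could be seen: 67 of 130 members could not be tested, and counts of 0 do not show that a segment was absent.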

Other observations

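Among heavy-chain genes outside the rule, Ighg2c, an IgG subclass of C57BL/6 mice, had 168 of its 330 fragments in HFWT 4, the library with the most Igkc, Igha, Ighm and Igkv2-137. HFWT 4 had 6.95 FPKM of Ighg2c, and the other HFWT libraries had 30, 7, 11 and 2 fragments. The log2 fold change between diets was 2.16 (adjusted p = 0.0164) in WT and 1.62 (adjusted p = 0.0649) in the libraries labelled KO. Ighe, the constant region of IgE, had 4 fragments, all in HFWT.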
